A study of Mus musculus with 12 samples.

Results

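The protein kinase C family was followed in mouse bone marrow-derived macrophages through every array probe whose annotated symbol was Prkca, Prkcb, Prkcd, Prkce, Prkch, Prkcq or Prkcz. These 7 genes had 18 probes, out of 34885 probes with 1 gene symbol that stand for 19057 genes. RNA was measured on 12 Illumina bead arrays in 4 groups of 3. The first group received cyclodextrin at 4% for 4 h and then LPS, the second HDL at 300 ug/ml for 24 h and then LPS, the third PBS and then LPS, and the fourth PBS with no LPS. LPS, a bacterial cell wall component that activates macrophages, was given after washing at 10 ng/ml for 6 h. HDL, a lipoprotein, accepts cholesterol from the cell membrane, and cyclodextrin, a cyclic sugar polymer, extracts it. All groups came from C57BL/6 bone marrow taken from mice aged 9 to 16 weeks and grown for 8 to 9 days in medium with 20% conditioned medium of L929 cells, a fibroblast line that secretes macrophage growth factor. The labels give no contact time for PBS and do not say whether the arrays of a group came from separate animals or cultures, so p-values measure only the spread between these arrays, which may be technical.

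Protein kinase C enzymes are serine and threonine kinases that are recruited to membranes by lipid signals. The conventional forms, which include the products of Prkca and Prkcb, need calcium and diacylglycerol. The calcium-independent forms, the products of Prkcd, Prkce, Prkch and Prkcq, need diacylglycerol alone, and the atypical form made from Prkcz needs neither. In mouse macrophages the family is known for signalling downstream of pattern recognition receptors and for phosphorylating a cytosolic subunit of the NADPH oxidase.

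Promoters are printed for Prkca, Prkcb and Prkcd, the members with an entry among the 4 genes with a probe that could be tested. The RefSeq table, on build GRCm38.p6, held 8 promoters of 5 of the 7 members, and Prkce and Prkch were not among them. Each sequence has 300 bases and runs from 250 bases before to 50 after the transcript's start, written 5′ to 3′ on the gene's strand. Capitals mark the GC box GGGCGG on either strand, the motif that the factor Sp1 binds. Prkca is at chr11:108343839-108344138 on the minus strand, Prkcb at chr7:122288875-122289174 on the plus strand, and Prkcd at chr14:30626159-30626458 on the minus strand, the more upstream of its 2 listed promoters.
Prkca: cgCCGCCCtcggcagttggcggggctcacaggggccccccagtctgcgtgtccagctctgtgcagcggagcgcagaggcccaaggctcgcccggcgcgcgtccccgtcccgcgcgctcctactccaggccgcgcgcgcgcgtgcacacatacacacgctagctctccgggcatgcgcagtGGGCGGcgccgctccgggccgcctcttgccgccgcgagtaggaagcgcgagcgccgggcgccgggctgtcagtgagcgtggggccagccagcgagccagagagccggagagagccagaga
Prkcb: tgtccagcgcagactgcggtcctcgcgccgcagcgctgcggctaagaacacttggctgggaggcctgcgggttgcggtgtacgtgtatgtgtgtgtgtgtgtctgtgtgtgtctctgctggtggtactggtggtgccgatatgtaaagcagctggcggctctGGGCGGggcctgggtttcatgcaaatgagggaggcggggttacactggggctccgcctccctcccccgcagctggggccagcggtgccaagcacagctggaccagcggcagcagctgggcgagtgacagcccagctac
Prkcd: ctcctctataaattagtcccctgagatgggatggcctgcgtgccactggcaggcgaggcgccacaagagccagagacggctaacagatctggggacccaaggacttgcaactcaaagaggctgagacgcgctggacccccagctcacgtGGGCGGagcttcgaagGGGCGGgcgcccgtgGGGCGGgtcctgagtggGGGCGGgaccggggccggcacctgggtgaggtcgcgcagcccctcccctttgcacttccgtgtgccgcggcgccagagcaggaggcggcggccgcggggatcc
The Prkca promoter was 75.3% G or C with 42 CpG dinucleotides, that of Prkcb 65.3% with 19, and that of Prkcd 69.3% with 26. The other Prkcd promoter, not printed, was 51.3% G or C with 2 CpG and held 0 GC boxes, 0 NF-kB motifs and no TATAAA. Over all 32851 promoters of the table the medians were 52.7% and 7. The GC box stood 2 times in the Prkca window, 1 time in that of Prkcb and 4 times in that of Prkcd, and 35.7% of all promoters held it. A loose form of the NF-kB site, GGG and CC with 5 bases between them, was found 3 times for Prkca, 2 times for Prkcb and 2 times for Prkcd, and 50.8% of all promoters held it. On both strands the windows of these 3 genes held no PU.1 motif GAGGAA (28.3% of all promoters), no AP-1 motif TGANTCA (7.81%) and no interferon element, GAAA and GAAA with 2 bases between them (3.44%). The printed Prkcd window alone among them held TATAAA, which 13.6% of promoters held. The counts for different motifs may overlap in position. They describe letters in these windows only.

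The macrophage label was borne out by its markers, since 9 of 9 listed macrophage genes with a probe were detected on all 12 arrays. Of the markers of other cells, 0 of 6 T cell genes were detected on any array, while 5 of 7 neutrophil, 2 of 6 mast cell (Kit and Fcer1a), 1 of 4 B cell (Cd79b) and 1 of 6 fibroblast genes (Dcn) were detected on at least 3. For NK cells, megakaryocytes and red cells these counts were 0 of 3, 0 of 3 and 0 of 2. The arrays responded to LPS by their labels. Il1b was higher by 9.37 ± 0.15 on the log2 scale, Il6 by 5.38 ± 0.18 and Tnf by 4.83 ± 0.16 (SE, limma), 3 cytokines that macrophages make on LPS. Pearson correlations of normalized signals were 0.988 to 0.995 between arrays of one group, 0.983 to 0.993 between different LPS groups and 0.857 to 0.883 between arrays with and without LPS. The share of probes detected was 34.3 ± 0.963% with cyclodextrin and LPS, 36.0 ± 0.173% with HDL and LPS, 36.7 ± 0.265% with PBS and LPS and 37.2 ± 1.25% with PBS alone (SD, n = 3 each).

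Of the 7 members, 4 had a probe that could be tested, with that of Prkca near background. A probe was called detected on an array at a detection p under 0.05, and tested when detected on at least 3 of the 12 arrays. The 3 Prkcb probes, 1 of the 2 Prkch probes and the only Prkcd probe were detected on all 12 arrays. A Prkca probe, ILMN_1256967, was detected on 0 of 3 cyclodextrin arrays, 0 of 3 HDL arrays, 1 of 3 PBS arrays with LPS and 3 of 3 without. It thus passed mainly through the arrays with PBS alone. The other 12 probes did not pass. Signals before normalization were 59.3 to 74.3 for the second Prkca probe and 66.4 to 84.4 for the second Prkch probe, both detected on 0 of 12 arrays.

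Of the remaining calcium-independent kinases, Prkce, needed for LPS responses of mouse macrophages, had 4 probes. ILMN_2435477 was detected on 1 of 3 cyclodextrin arrays and 1 of 3 HDL arrays, against 0 of 3 PBS arrays with LPS and 0 of 3 without, with signals of 69.9 to 101.5 over all arrays. ILMN_2993204 was detected on 1 HDL array and on none of the other 11, and the other 2 Prkce probes were detected on 0 of 12. Prkcq, best known from T cell receptor signalling, had 2 probes detected on 0 of 12 arrays, with signals of 47.7 to 88.0. The 4 probes of the atypical Prkcz were also detected on 0 of 12 arrays, with signals of 46.4 to 71.8. Detection did not separate the groups for any of these 10 probes, and their transcripts were not measurable above background here. Outside the 7 members, Prkci, the other atypical form, had 1 probe at 50.1 to 67.9 that was detected on 0 of 12 arrays.

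**Figure D1:**
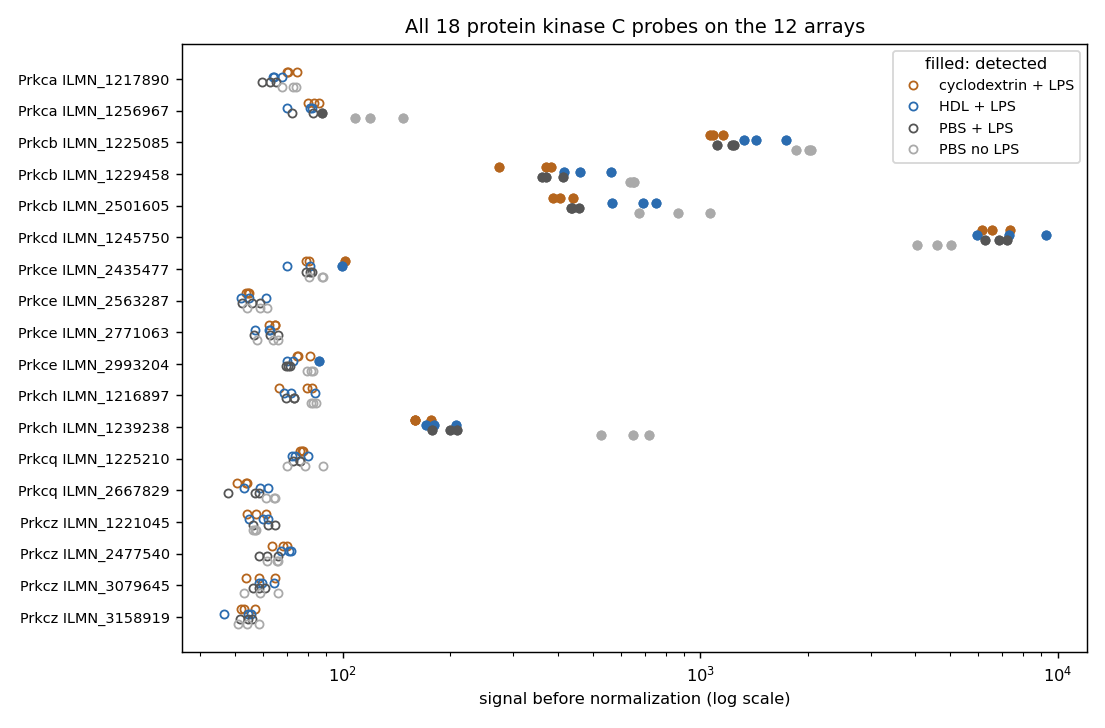
Signal before normalization on a log axis for each of the 18 protein kinase C probes, with 1 point per array. Colours give the group and filled points the arrays on which the probe was detected. The Prkcb probes, the Prkcd probe and ILMN_1239238 of Prkch are filled on all 12 arrays, whereas the 6 probes of Prkcq and Prkcz are filled on none. Levels of different probes are not comparable with each other.

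With PBS and LPS against PBS alone, Prkcd was higher, while Prkch and all 3 Prkcb probes were lower. All 6 tested probes were called at an adjusted p under 0.05 (limma, Benjamini-Hochberg over 15497 probes), 1 higher and 5 lower. In the same comparison 57.8% of all tested probes were called, 23.1% higher and 34.7% lower, so that a call under LPS is common on these arrays. The Prkca probe entered the test through its signal without LPS, so its call, and the count of 6 that holds it, support nothing. Groups did not overlap for any of the 6 probes, as for 63.4% of all probes. Fewer cells of a type and less RNA per cell cannot be told apart in such bulk samples.

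Prkcb, the conventional kinase of B cell and myeloid signalling, was read by 3 probes. By ILMN_1225085 its normalized log2 signals were 10.20, 10.39 and 10.28 with PBS and LPS, against 10.50, 10.73 and 10.79 with PBS alone. Each array with LPS lay below each array without, and the difference was -0.38 ± 0.12 (adjusted p = 0.0137). By ILMN_1229458 the signals were 8.46, 8.55 and 8.60 with PBS and LPS, against 8.78, 8.83 and 8.94 with PBS alone, a difference of -0.31 ± 0.12 (adjusted p = 0.0431). ILMN_2501605 gave 8.77, 8.83 and 8.78 with PBS and LPS, against 8.87, 9.66 and 9.41 with PBS alone, a difference of -0.52 ± 0.18 (adjusted p = 0.0215). The 3 probes therefore had the same direction and folds of 1.24 to 1.44, with groups that were separate but close. Single arrays decided these calls. Of the arrays with PBS alone, leaving out replicate 3 gave the 3 probes adjusted p-values of 0.0603, 0.137 and 0.0684, and leaving out replicate 2 gave the second 0.0695 and the third 0.114, with a difference of -0.35. Of the arrays with PBS and LPS, leaving out replicate 7 gave 0.0538, 0.120 and 0.0518. The call of the second probe was also lost without replicate 8 (0.0829) or 9 (0.0589) of that group or HDL replicate 16 (0.0509) or 17 (0.0511), and that of the third without replicate 9 (0.0520) or with no detection filter (0.0562). The median change of all tested probes was -0.11, and relative to it the Prkcb differences were -0.27, -0.20 and -0.41. With median scaling the 3 Prkcb differences were -0.61, -0.70 and -0.89 around an all-probe median of -0.40, or -0.21, -0.31 and -0.49 relative to it.

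Prkca, also a conventional kinase, had normalized log2 signals of 5.42, 5.23 and 4.83 with PBS and LPS, against 6.12, 5.51 and 5.89 with PBS alone. Before normalization the signals were 87.4, 82.6 and 72.0 with PBS and LPS, of which only the first was detected, against 147.4, 108.1 and 119.5 with PBS alone. The signal was near background throughout, and every array with LPS lay below every array without. The fitted difference of -0.68 is a description, since the probe passed the filter through the group in which it was high. It was -0.30 with no background correction and -0.36 with the authors' processed values. The annotation lists no transcript for this probe, and the other Prkca probe was not detected.

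Among the calcium-independent kinases, Prkcd, which in mouse cells acts between Dectin-1 and the adaptor CARD9, was higher with LPS. Its normalized log2 signals were 12.79, 12.90 and 12.62 with PBS and LPS, against 11.74, 12.03 and 12.26 with PBS alone. The lowest array with LPS stood above the highest array without, and the difference was 0.76 ± 0.14 (adjusted p = 0.000294), a level 1.69-fold higher. Signals before normalization were 6264 to 7228 with PBS and LPS, against 4051 to 5018 with PBS alone.

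Prkch, another such kinase, studied mostly in epithelial differentiation, had the most negative log2 difference of the 6 probes under LPS. Its normalized log2 signals were 7.52, 7.25 and 7.36 with PBS and LPS, against 8.49, 9.00 and 8.92 with PBS alone. All arrays with LPS were low and all without were high, with a gap between the groups wider than the spread in either. The difference was -1.43 ± 0.14 (adjusted p = 5.13e-07), a level 2.69-fold lower. The calls of Prkch and Prkcd held in all 22 alternative settings, with differences of -1.84 to -1.14 for Prkch and 0.60 to 0.89 for Prkcd. Summed signals of the mast cell list, taken before normalization, were also lower with LPS. They were 408 to 419 with PBS and LPS against 570 to 652 with PBS alone. Those of the B cell list were 298 to 340 with PBS and LPS against 395 to 428 with PBS alone. The macrophage list summed to 97640 to 98500 with PBS and LPS against 75320 to 82660 with PBS alone. In the same order the undetected T cell list summed to 376.5 to 391.7 against 391.6 to 437.1. The neutrophil list summed to 1134 to 1273 against 1230 to 1312. The median signal of an array was 71.0 to 71.7 with PBS and LPS against 73.7 to 82.5 with PBS alone. In the mast cell list 4 of 6 genes, and in the B cell list 3 of 4, were detected on 0 of 12 arrays. Those sums thus rest on few genes, and no such sum counts cells. The part of these lists in the changes of Prkch and Prkcb was not tested.

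**Figure D2:**
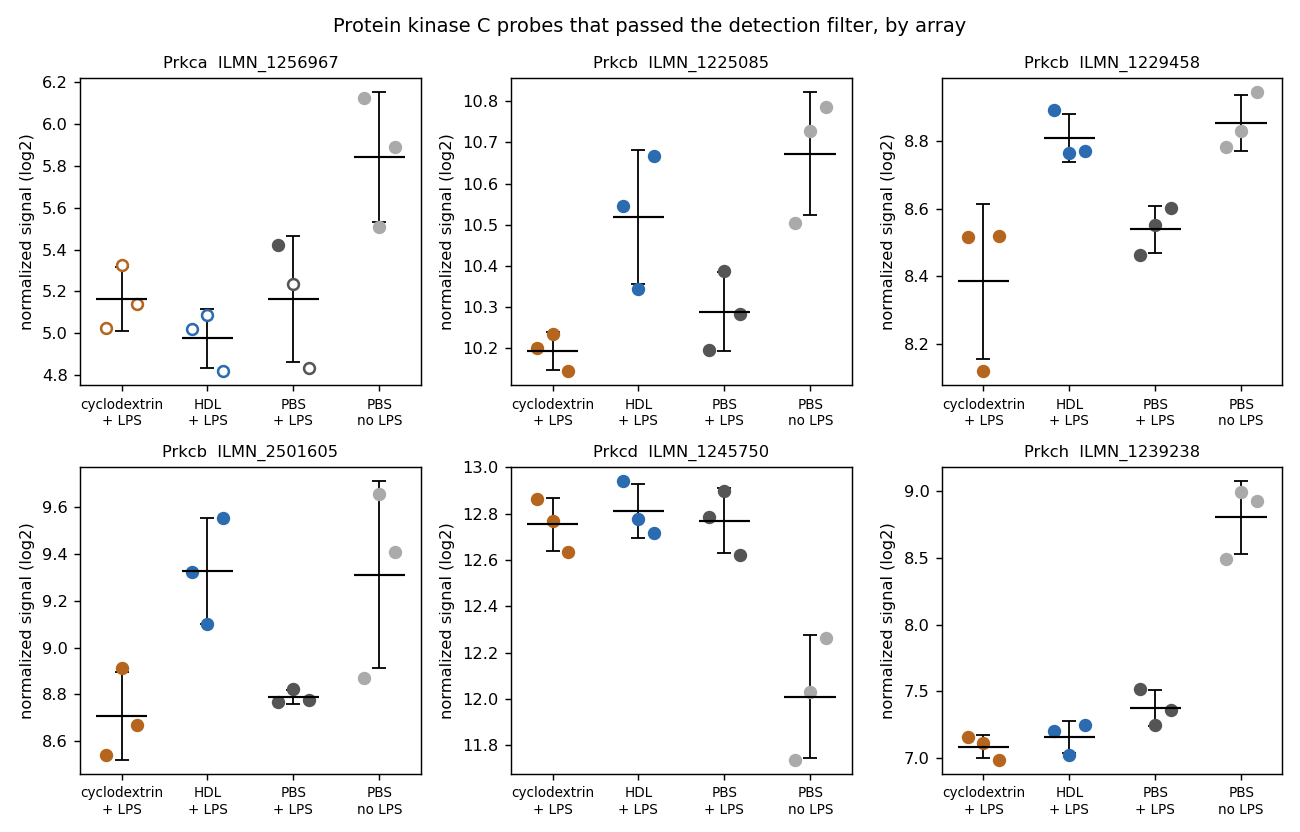
Normalized log2 signal of the 6 tested protein kinase C probes, with 1 point per array and groups in the order cyclodextrin with LPS, HDL with LPS, PBS with LPS and PBS alone. Horizontal lines are means, bars are 1 SD over 3 arrays, and open points are arrays on which the probe was not detected; each panel has its own axis. Prkch separates arrays with LPS (6.99 to 7.52) from those without (8.49 to 9.00), Prkcd does so in the other direction, and the Prkcb probes have HDL arrays above cyclodextrin arrays.

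HDL before LPS left no member past the threshold against PBS before LPS. Of the 6 tested probes 0 were called, where 0.858% of all tested probes were, 0.394% higher and 0.465% lower (limma, adjusted p). At an unadjusted p under 0.05, there were 2 of the 6, both from Prkcb, where 2518 of all 15497 tested probes were. All 3 Prkcb probes had positive differences. ILMN_2501605 gave 9.33, 9.10 and 9.56 with HDL and LPS, against 8.77, 8.83 and 8.78 with PBS and LPS, a difference of 0.54 ± 0.18 (adjusted p = 0.153, unadjusted 0.00925). Every HDL array was above every PBS array for this probe. The unadjusted 95% interval of the difference ran from 0.16 to 0.92. ILMN_1229458 gave 8.89, 8.77 and 8.77 with HDL and LPS, against 8.46, 8.55 and 8.60 with PBS and LPS, a difference of 0.27 ± 0.12 (adjusted p = 0.300), again without overlap. ILMN_1225085 gave 10.55, 10.35 and 10.67 with HDL and LPS, against 10.20, 10.39 and 10.28 with PBS and LPS, a difference of 0.23 ± 0.12 (adjusted p = 0.363), and here the groups overlapped. These 2 probes without overlap compare with 24.4% of all probes that had none.

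The other members had smaller or negative differences under HDL. Prkcd had 12.94, 12.78 and 12.72 with HDL and LPS, against 12.79, 12.90 and 12.62 with PBS and LPS, which was 0.04 ± 0.14 with a 95% interval from -0.26 to 0.34 (adjusted p = 0.921). Prkch had 7.21, 7.03 and 7.25 with HDL and LPS, against 7.52, 7.25 and 7.36 with PBS and LPS, which was -0.22 ± 0.14 (adjusted p = 0.469). Both pairs of groups overlapped. Prkca was undetected on all 3 HDL arrays and detected on 1 PBS array with LPS, and no fold is given for it. No member probe was called in this comparison under any of 22 alternative settings.

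Cyclodextrin before LPS, set against the same 3 PBS arrays, also left 0 of the 6 member probes called, where 4.18% of all tested probes were, 1.94% higher and 2.25% lower. At an unadjusted p under 0.05 the count was likewise 0, where 2834 of all 15497 tested probes were. Prkch came nearest, with 7.16, 7.11 and 6.99 after cyclodextrin and LPS, against 7.52, 7.25 and 7.36 after PBS and LPS. All cyclodextrin arrays were below all PBS arrays, which was also so, in one direction or the other, for 25.2% of all probes. The difference was -0.29 ± 0.14 with an interval from -0.59 to 0.01 (adjusted p = 0.293). Prkcd had 12.86, 12.77 and 12.63 after cyclodextrin and LPS, a difference of -0.02 ± 0.14 with an interval from -0.32 to 0.29 (adjusted p = 0.973). The Prkcb differences were -0.10 ± 0.12, -0.15 ± 0.12 and -0.08 ± 0.18 for ILMN_1225085, ILMN_1229458 and ILMN_2501605, with adjusted p-values of 0.746, 0.567 and 0.867. Their groups overlapped. Prkca, with 5.03, 5.33 and 5.14, was detected on 0 of 3 cyclodextrin arrays. The HDL and cyclodextrin comparisons share their PBS arrays, so their values are not independent.

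Set directly against each other, cyclodextrin and HDL differed most among the members in Prkcb, without reaching the threshold. Cyclodextrin was given for 4 h and HDL for 24 h, so agent and time cannot be told apart in this comparison. Of the 6 probes 0 were called, where 2.12% of all tested probes were, 0.89% higher and 1.23% lower. An unadjusted p under 0.05 was found for 2756 of all 15497 tested probes and for 3 of the 6. The 3 member probes were those of Prkcb, which also were the 3 without overlap (23.2% of all probes had none). ILMN_2501605 had 8.54, 8.91 and 8.67 after cyclodextrin and LPS, against 9.33, 9.10 and 9.56 after HDL and LPS, a difference of -0.62 ± 0.18 (adjusted p = 0.0880). ILMN_1229458 had 8.52, 8.12 and 8.52 after cyclodextrin and LPS, against 8.89, 8.77 and 8.77 after HDL and LPS, a difference of -0.42 ± 0.12 (adjusted p = 0.0927). All cyclodextrin arrays lay below all HDL arrays. ILMN_1225085 had 10.20, 10.24 and 10.15 after cyclodextrin and LPS, against 10.55, 10.35 and 10.67 after HDL and LPS, a difference of -0.33 ± 0.12 (adjusted p = 0.172). The 3 probes read transcripts of one gene in the same RNA and are not independent. With median scaling in place of quantile normalization all 3 were called (adjusted p = 0.0444 for ILMN_1225085, 0.0271 for ILMN_1229458 and 0.0115 for ILMN_2501605). Of all 15497 tested probes 1037 were then called, 74 higher and 963 lower. The median of all probes then stood at -0.15, and the 3 differences relative to it were -0.34, -0.46 and -0.66. The adjusted p-values test against 0 and not against that median. ILMN_2501605 was called under 6 of 21 alternatives. The share of probes detected also differed between these groups, at 33.3 to 35.3% with cyclodextrin and 35.8 to 36.2% with HDL. Its part in the Prkcb values was not tested. The other members differed by -0.06 ± 0.14 (Prkcd) and -0.08 ± 0.14 (Prkch), with adjusted p-values of 0.883 and 0.837, and Prkca was detected in neither group.

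**Figure D3:**
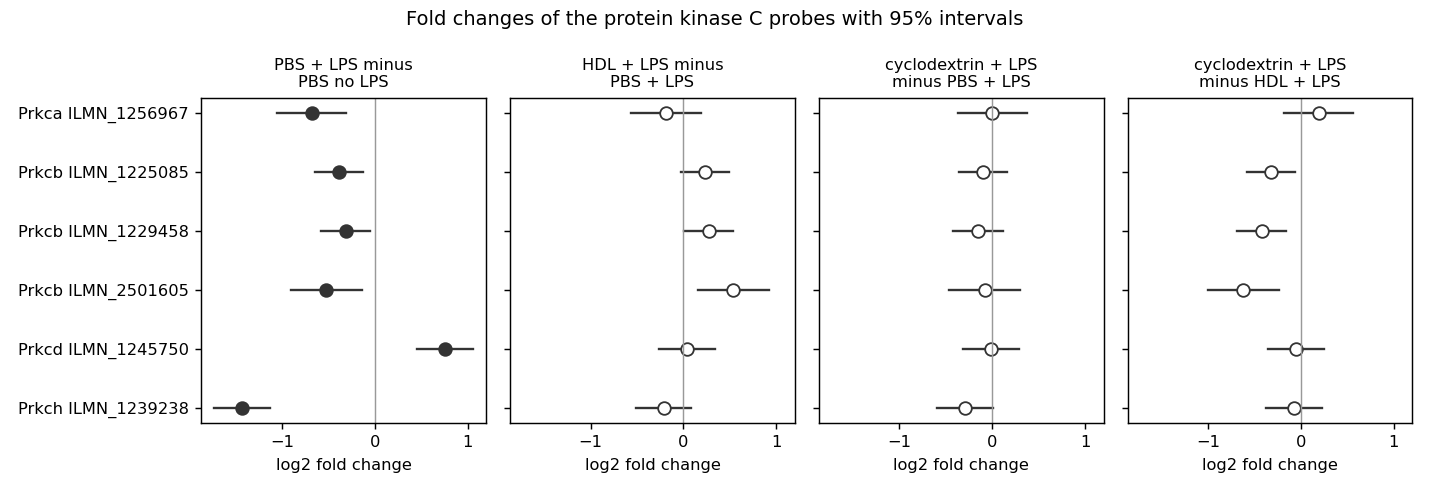
Log2 fold changes of the 6 tested protein kinase C probes in 4 comparisons, with 95% intervals from the limma model of all 12 arrays. Filled points were called at an adjusted p under 0.05 over 15497 probes. For LPS all 6 are filled, with Prkcd at 0.76 and Prkch at -1.43, and Prkca passed the filter through the arrays with PBS alone. None is filled in the other 3 panels, where the unadjusted Prkcb intervals for cyclodextrin against HDL lie below 0.

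Over the 4 groups, the order of levels differed by member. For Prkcb ILMN_1225085 the group means were 10.19 ± 0.05 with cyclodextrin and LPS, 10.52 ± 0.16 with HDL and LPS, 10.29 ± 0.10 with PBS and LPS and 10.67 ± 0.15 with PBS alone (SD, n = 3). The HDL mean thus stood between those of the PBS groups, and the HDL arrays overlapped both. For ILMN_2501605 the HDL mean of 9.33 ± 0.23 was next to that of PBS alone, 9.31 ± 0.40, and those groups overlapped. For Prkcd the 3 groups with LPS, at 12.76 ± 0.12 with cyclodextrin, 12.81 ± 0.12 with HDL and 12.77 ± 0.14 with PBS, did not differ beyond their spread, and PBS alone was lowest at 12.01 ± 0.26. For Prkch PBS alone was highest. The means were 7.09 ± 0.09 with cyclodextrin and LPS, 7.16 ± 0.12 with HDL and LPS, 7.38 ± 0.14 with PBS and LPS and 8.80 ± 0.27 with PBS alone. Cyclodextrin and HDL, and HDL and PBS with LPS, overlapped for this gene.

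Among the 9 arrays with LPS the Prkcb probes had Pearson correlations of 0.92, 0.67 and 0.59 with each other. Prkcd and Prkch had 0.07, and Prkcd against the Prkcb probes had 0.28, 0.19 and 0.14. These arrays share the normalization, and the values are descriptions over 9 arrays of 3 groups.

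By the pattern over all 12 arrays, the genes most like each member were found among 9795 genes, each by its brightest passing probe. Nearest to Prkcb ILMN_1225085 were Wdr6 (r = 0.98, and 0.95 within the 9 arrays with LPS), Fmo5 (0.95 and 0.91) and Ide (0.94 and 0.94). Nearest to Prkch were Hdac5 (0.99 and 0.92), Etv5 (0.99 and 0.87) and C77080 (0.99 and 0.70). Nearest to Prkcd were Ctu1 (0.98 and 0.81), Tm9sf4 (0.97 and 0.62) and Lmo4 (0.97 and 0.72). Nearest to Prkca were Zfp64 (0.96 and 0.83), Sgsh (0.96 and 0.82) and Sgf29 (0.96 and 0.82). Among the arrays with LPS the Prkca probe was detected on 1 of 3 with PBS and on 0 of 3 in each other group. Its values within those arrays thus describe signal near background. The values over 12 arrays include the split between arrays with and without LPS, and these genes were picked as the highest of many.

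Genes around the kinases were taken by role, each by its brightest passing probe. Under LPS, 59.8% of all 9795 genes were called, 21.9% higher and 37.9% lower, with a median change of -0.14. Folds given as "at least" set undetected arrays at no less than the lowest signal above background, and hold for the background-corrected values alone. Rasgrp1, Cybb, Fscn1 and Akap12 were detected on 0 of 3 arrays with PBS alone and passed the filter through arrays with LPS. Their LPS calls, and the counts that hold them, are descriptions. Genes named beyond the largest change in each direction were chosen after their values were seen. Of the related kinases, 4 of 7 could be tested, with a median of -0.30. Pkn2, a kinase with a similar catalytic domain, was higher by 0.99 ± 0.13 (adjusted p = 7.56e-06), and Prkd2, a protein kinase D that protein kinase C activates, was lower, at -0.47 ± 0.11 (adjusted p = 0.00219). Prkd3 had -0.33 ± 0.27 (adjusted p = 0.327) and Prkd1 had no probe that passed. With median scaling Pkn2 had 0.61 and Prkd2 -0.86.

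Enzymes that make and remove diacylglycerol moved in both directions under LPS. Of 14 phospholipase C genes 6 were tested, with a median of 0.51. Plcl2, an inactive relative, rose by 1.29 ± 0.15 (adjusted p = 4.04e-06), and Plcb3 and Plcd1 (adjusted p = 0.0469) were also higher. Plcb2 was lower, at -1.15 ± 0.16 (adjusted p = 2.16e-05), but its other probe had 0.11, and Plcg2, which acts below immune receptors, was lower as well. Of 11 genes that remove diacylglycerol 7 were tested, with a median of -0.03. The diacylglycerol kinase Dgkh was at least 4.24-fold higher, being detected on 3 of 3 arrays with LPS and 2 of 3 without, and Dgka was also higher. The fitted Dgkh difference of 2.10 was 1.15 with no background correction, a smaller change than that bound. The lipase Daglb was lower, at -1.04 ± 0.10 (adjusted p = 4.34e-07), as was the kinase Dgkz, at -0.71 ± 0.14 (adjusted p = 0.000483).

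The list of other diacylglycerol receptors and their relatives had 5 of 10 genes tested. It was made by gene family, and not every product need bind diacylglycerol. Under LPS 2 were higher and 3 lower, with a median of -0.99. Rasgrp1, a Ras activator, was at least 10.1-fold higher, being detected on 3 of 3 arrays with LPS and 0 of 3 without. Its relative Rasgrp3 was at least 29.7-fold lower (adjusted p = 1.18e-11), being detected on 1 of 3 arrays with LPS and 3 of 3 without. The fitted differences of these related activators had opposite signs. For Rasgrp1 this is a description, since it passed the filter through arrays with LPS. With no background correction the fitted differences were 2.58 for Rasgrp1 and -3.66 for Rasgrp3, and with the authors' processed values 2.90 and -3.89, smaller changes than these bounds. Unc13d was the other gene that was higher (adjusted p = 0.0395), and Rasgrp4 and Chn2 were the others that were lower.

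Of 22 substrates, anchors and scaffolds 12 were tested, with 6 higher, 4 lower and a median of 0.54. Marcksl1, a substrate that binds actin and membranes, rose by 4.67 ± 0.14 (adjusted p = 7.11e-13), and its 3 other probes had 3.74 to 4.51. Add3, a cytoskeletal substrate, was lower, at -1.76 ± 0.12 (adjusted p = 1.18e-08), with -1.67, -0.75 and -0.22 from its other probes; Pard6a, Pick1 (whose other probe had 0.06) and Add1 were the others that were lower. The phosphatase Phlpp1, which removes a phosphate that stabilizes protein kinase C, was the only gene of its list tested and rose by 2.64 ± 0.12 (adjusted p = 6.21e-11), or by 1.65 with no background correction. In the CARD9 and CARMA1 branch 7 of 11 genes were tested, with 4 higher, 0 lower and a median of 0.31. Malt1, its protease, rose by 2.76 ± 0.19 (adjusted p = 8.1e-09), and Ikbkb, Map3k7 and Traf6 (adjusted p = 0.0494) were the others. In the NADPH oxidase list 6 of 7 genes were tested, with 4 higher, 1 lower and a median of 0.52. Cybb, the catalytic subunit, was at least 2.38-fold higher, being detected on 0 of 3 arrays without LPS. The others that were higher were Ncf1, Ncf4 and Rac2 (adjusted p = 0.0443). The fitted Cybb difference of 1.76 was 0.86 with no background correction and 1.02 with the authors' processed values, smaller changes than that bound. Cyba, its partner, was lower, at -0.28 ± 0.11 (adjusted p = 0.0364), a call lost under 6 of 22 alternatives (adjusted p up to 0.0928).

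Few genes of these lists were called with HDL or cyclodextrin. Of the 48 genes tested in them, HDL against PBS under LPS called 1, where 1.02% of all genes were called, and cyclodextrin called 3, where 4.45% were. Fscn1, the actin bundler fascin, a substrate of protein kinase C, was called in both comparisons and in opposite directions. Its normalized log2 signals were 7.48, 7.20 and 7.42 with cyclodextrin and LPS, 8.70, 8.70 and 9.38 with HDL and LPS, and 8.12, 8.02 and 8.11 with PBS and LPS. It was not detected on the 3 arrays with PBS alone. All HDL arrays were above and all cyclodextrin arrays below the shared PBS arrays. Preincubation was 4 h with cyclodextrin and 24 h with HDL, with no time given for PBS, so agent and time cannot be told apart. Fscn1 was higher by 0.84 ± 0.16 with HDL (adjusted p = 0.0273) and lower with cyclodextrin, at -0.71 ± 0.16 (adjusted p = 0.0245). Each call was lost under 6 of 22 alternatives. Both were lost with no detection filter and without replicate 7, 8 or 9 of the PBS group with LPS, the HDL call also without HDL replicate 18 or with only the 2 groups compared, and the cyclodextrin call also without cyclodextrin replicate 23 or 24. The adjusted p then reached 0.123 for HDL and 0.0878 for cyclodextrin.

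Phlpp1 and Dgkz were also called with cyclodextrin. Phlpp1 had 8.95, 8.92 and 8.92 with cyclodextrin and LPS, against 8.18, 8.30 and 8.10 with PBS and LPS, a difference of 0.74 ± 0.12 (adjusted p = 0.00318). All cyclodextrin arrays were above all PBS arrays, and the call held in all 22 alternatives. With HDL and LPS the values were 8.55, 8.46 and 8.46, a difference from PBS and LPS of 0.30 ± 0.12 (adjusted p = 0.223), and cyclodextrin minus HDL was 0.44 ± 0.12 (adjusted p = 0.0686). Dgkz, which turns diacylglycerol into phosphatidic acid, had 9.82, 9.96 and 9.65 with cyclodextrin and LPS, against 10.67, 10.53 and 10.26 with PBS and LPS. Its difference was -0.68 ± 0.14 (adjusted p = 0.0147), its other probes had -0.66 and -0.57, and the call was lost on leaving out replicate 7 or 8 of the PBS group with LPS or replicate 24 of the cyclodextrin group (adjusted p up to 0.0763). With HDL and LPS the Dgkz values were 10.20, 10.16 and 9.91, a difference from PBS and LPS of -0.40 ± 0.14 (adjusted p = 0.171).

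**Figure D4:**
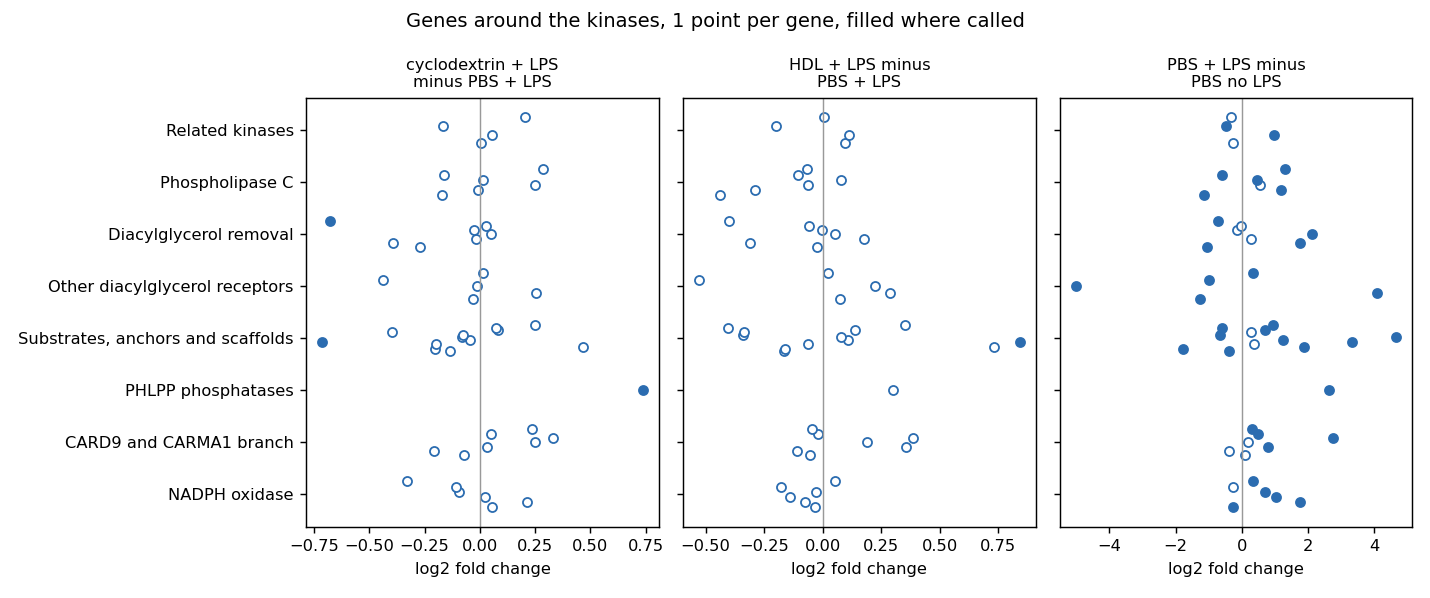
Log2 fold changes of the genes around protein kinase C, 1 point per gene on its brightest passing probe, for cyclodextrin with LPS and HDL with LPS against PBS with LPS, and for PBS with LPS against PBS alone. Filled points were called at an adjusted p under 0.05, and the horizontal scale differs between panels. Filled points for cyclodextrin are Dgkz (-0.68), Fscn1 (-0.71) and Phlpp1 (0.74), that for HDL is Fscn1 (0.84), and 36 of 48 points are filled for LPS.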

How the data were processed

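The members, role lists and tests were chosen with earlier results of these data known. The 12 arrays were grouped by their labels, in which HDL appears as nHDL and the n is not explained. Per the submitters' processing notes the authors used GenomeStudio, with no version given. Each array has a deposited signal before normalization and a detection p-value, per the file headers, and a second deposited table has the authors' processed values, with a normalization not given in the sources used here. Most deposited values had lost their decimal mark. Of 543372 values 10998 kept it, 409782 were placed from the number of digits or the detection p-value, 114001 by each array's curve of processed against non-normalized values and 8591 by the same digit string. Of 6721 hidden values, 0 were placed wrong, but the rule was adjusted while this test was in view. The test had been planned for intensities as stored and was run on these rebuilt signals.

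Signals were background corrected, quantile normalized and put on the log2 scale by neqc (limma 3.58.1, R 4.3.3, offset 16, detection p-values standing in for control probes). Probes with 1 symbol in the platform annotation and a detection p under 0.05 on at least 3 of 12 arrays were tested, 15497 in all. A single limma model of the 4 groups (lmFit, eBayes, two-sided tests, degrees of freedom 8 residual and 6.33 prior) gave 4 comparisons, with Benjamini-Hochberg adjustment over all those probes. Differences carry standard errors and group means carry SDs. Named genes were every member probe and, in each role list, the gene with the largest called change in each direction in each comparison against PBS. Depth has no counterpart on arrays, so the number of arrays limits precision. The fit was tested on simulated data. Alternatives were no background correction, median scaling, the authors' processed values, no detection filter, detection on all 3 arrays of a group, an offset of 50, 1 probe per gene, only the 2 groups compared, array weights, a variance trend and leaving out each array. The runs of the named role genes under these settings were added after seeing the data. Positions and motifs of promoters came from the RefSeq table, read with Python 3.11.15, numpy 2.4.6 and pandas 2.3.3.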

Additional observations from a re-analysis of the deposited data

Results flagged for a closer look

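The Fscn1 probe was picked out because its changes with cyclodextrin and with HDL, each against PBS under LPS, differed by a test of the difference itself. Cyclodextrin minus HDL was -1.55 ± 0.16 on the log2 scale (limma, adjusted p = 0.000335 over 15497 probes), with means of 7.37 ± 0.15 after cyclodextrin and LPS and 8.92 ± 0.39 after HDL and LPS (SD, n = 3 each). All 3 cyclodextrin arrays lay below all 3 HDL arrays, and the call held in all 22 alternatives, with adjusted p up to 0.0264. Of all tested probes, 23.2% had no overlap between these groups. The probe was picked by this test on these arrays, so its size, its lack of overlap and the refits are no separate support. The share of probes detected on the cyclodextrin arrays was below that on the HDL arrays, and its part in this difference was not tested. Agent and preincubation time, 4 h for cyclodextrin and 24 h for HDL, cannot be told apart here.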

How the results depend on the processing

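Of the 6 member probes called under LPS, leaving out 1 array left 3 to 6, with 3 left without replicate 3 of PBS alone or replicate 7 of PBS with LPS. For HDL and for cyclodextrin against PBS under LPS the count was 0 in all 22 settings. For cyclodextrin against HDL it was 0, became 1 with no background correction, the authors' processed values, array weights or a variance trend, became 3 with median scaling, and was 0 to 1 on leaving out 1 array (1 without replicate 1 of PBS alone). The number of all probes called for LPS was 8953, and 5932 with 1 probe per gene, where fewer probes are tested. For HDL against PBS it was 133, against 308 with no background correction, 295 with the authors' processed values, 82 with no detection filter, 245 with an offset of 50, 53 with only the 2 groups compared, 542 with array weights and 253 with a variance trend, and 30 to 182 on leaving out 1 array (lowest without replicate 8 of PBS with LPS). For cyclodextrin against PBS it was 648, against 1147 with array weights and 260 to 770 on leaving out 1 array (lowest without replicate 7 of PBS with LPS). For cyclodextrin against HDL it was 328, against 1037 with median scaling, 66 with only the 2 groups compared and 111 to 430 on leaving out 1 array (lowest without HDL replicate 18). The causes of these shifts were not tested. LPS calls over all probes were 7834 to 8999 on leaving out 1 array. Median scaling turned the split of higher and lower calls to 2482 and 8019 for LPS (3574 and 5379 with quantile normalization), 75 and 56 for HDL (61 and 72), 119 and 628 for cyclodextrin (300 and 348) and 74 and 963 for cyclodextrin against HDL (138 and 190), with all-probe medians of -0.40, 0.04, -0.12 and -0.15. No called value changed sign. Of 938 refits of single member probes and named genes, 895 kept their side of the threshold, 35 lost a call and 8 gained one. The named genes were picked as the largest called changes, so these counts do not measure how stable a typical result is. Of the lost calls, 2 were of Prkcb ILMN_1225085 under LPS, 7 of ILMN_1229458 and 5 of ILMN_2501605. Prkcb is the member whose calls depend on single arrays and on the scaling, and Prkca was limited by signal near background. The labels do not say whether arrays of different groups were paired, and no pairing was modelled.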
